A study of Mus musculus with 63 samples.

Results

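The 10 genes described here, Fos, Fosb, Jun, Junb, Egr1, Egr2, Arc, Npas4, Nr4a1 and Atf3, were chosen by name as genes of the immediate early response, out of 56980 genes listed in each of the 4 count tables of the study, and each symbol matched 1 row. The tables hold RNA-seq counts of cells sorted from the cortex of female C57BL/6J mice. Every mouse, 12 weeks old on entry to the study, received AAV5-CaMKII-eGFP and AAV1-mDlx-mRuby2 in the motor cortex of both hemispheres, under isoflurane, with buprenorphine, bupivacaine and paracetamol as pain relief. Directly afterwards it was given either a burn of the right flank or a sham procedure of shaving alone, and its tissue was taken 5 weeks later. All groups therefore share the viral injection, the anaesthesia and the analgesia given around surgery. Further buprenorphine after surgery was given as single animals needed it and is named only for burned mice, so that it and the burn cannot be told apart. No uninjected or undissociated sample was analysed.

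Cells that were only eGFP positive (CaMKII libraries, 4 burn and 6 sham) and cells positive for both eGFP and mRuby2 (double-positive libraries, 9 burn and 7 sham) came from the motor cortex. The CaMKII promoter drove eGFP and the mDlx enhancer drove mRuby2. ACSA2-positive cells (9 burn and 8 sham), sorted as astrocytes, and CD11b-positive cells (8 burn and 7 sham), sorted as microglia, came from the cortex caudal to it, so that population and cortical region cannot be told apart in a comparison between these pairs. Brains were perfused with ice-cold saline and kept in ice-cold buffer, then dissociated enzymatically and sorted straight into lysis buffer. The steps between death and lysis are steps during which these genes can be induced, and without an undissociated sample, RNA present in the living cortex and RNA made during dissociation cannot be told apart at any value below.

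The 58 libraries used came from 17 mice in 3 sequencing batches, and held 13346143 to 134703744 counts (median 24339896). The 4 libraries of mouse 3, an animal with ulcerated skin, were left out, and so was that of mouse 8 in the double-positive population, which held 331215 counts. The labels of both neuron populations went against the marker genes. The summed level of 10 genes of all neurons (Snap25, Rbfox3 and others) was 335 to 541 CPM, counts scaled to a common library total, in the CaMKII libraries and 19.9 to 57.1 CPM in the double-positive libraries, against 515 to 1186 CPM in the ACSA2 libraries. Of the same 10 genes, the median gene stood higher in CaMKII libraries (11.6 CPM, median over libraries) than in ACSA2 libraries (3.29 CPM), so that a few genes carried the sum. The CaMKII libraries held 15485 to 28276 CPM of 10 astrocyte genes, 4147 to 11561 CPM of 8 endothelial genes and 445 to 2055 CPM of 10 microglial genes, and the double-positive libraries held 16913 to 31859 CPM of the microglial genes. The double-positive libraries had 0.845 to 3.75 CPM of 10 genes of inhibitory neurons (Gad1, Gad2 and others), of which 0 had a mean of at least 1 CPM. ACSA2 libraries (40252 to 56074 CPM of astrocyte genes) and CD11b libraries (20409 to 31941 CPM of microglial genes) carried the markers of their labels. The populations are therefore called by their sort labels alone, and no value of the CaMKII or double-positive libraries is given as a level of neurons. In bulk libraries, fewer cells of a type and less RNA per cell cannot be told apart either.

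Immediate early genes are transcribed within minutes of a stimulus, without new protein synthesis, by factors already present in the cell such as CREB and the serum response factor with its partners. In neurons, synaptic activity and calcium entry switch them on, and Fos, Arc and Egr1 are widely used as marks of recently active cells. In glia, growth factors, cytokines, injury and handling do the same, and in cells prepared from tissue Fos, Jun, Egr1 and Atf3 are known to be induced by warm enzymatic dissociation. Fos and Fosb pair with Jun and Junb to form AP-1, Egr1 and Egr2 are zinc finger factors, Nr4a1 is an orphan nuclear receptor and Atf3 is a stress-induced factor of the ATF family. Arc, a regulator of AMPA receptor endocytosis, and Npas4, an activity-dependent factor of the bHLH-PAS family, are the members most tied to neurons.

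The stretch before the start of transcription of these genes holds the elements through which calcium, cyclic AMP and serum act. Promoters are shown for the AP-1 members Fos and Jun, which had the highest levels, and for Npas4, which was hardly detected. Those of Egr2 and Nr4a1 are shown too, which differed most and least between the populations among the members other than Arc and Npas4. RefSeq windows (GRCm38.p6) of 8 of the 10 members were searched, and no window of Egr1 or Arc was among them. Each line gives the 250 bases before the start, 5′ to 3′ on the strand of the gene. Capitals mark matches of 4 motifs searched on both strands, which were the cyclic AMP response element TGACGTCA, its half-site TGACG (also found inside the full element), the AP-1 site TGANTCA and the CArG box, the serum response element core. The windows shown are Fos at chr12:85473640-85473889 on the plus strand, Jun at chr4:95052223-95052472 on the minus strand, Nr4a1 at chr15:101266596-101266845 on the plus strand, Egr2 (start 3 of 5) at chr10:67537619-67537868 on the plus strand and Npas4 at chr19:4989972-4990221 on the minus strand.
Fos: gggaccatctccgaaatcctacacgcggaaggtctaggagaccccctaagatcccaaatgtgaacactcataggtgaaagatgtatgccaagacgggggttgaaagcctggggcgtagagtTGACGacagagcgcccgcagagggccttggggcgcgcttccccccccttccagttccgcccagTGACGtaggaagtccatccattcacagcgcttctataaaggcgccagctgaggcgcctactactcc
Jun: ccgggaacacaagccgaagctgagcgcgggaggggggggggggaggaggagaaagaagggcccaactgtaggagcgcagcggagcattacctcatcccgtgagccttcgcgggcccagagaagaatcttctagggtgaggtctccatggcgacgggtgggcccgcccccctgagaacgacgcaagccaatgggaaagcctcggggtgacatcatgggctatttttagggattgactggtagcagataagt
Nr4a1: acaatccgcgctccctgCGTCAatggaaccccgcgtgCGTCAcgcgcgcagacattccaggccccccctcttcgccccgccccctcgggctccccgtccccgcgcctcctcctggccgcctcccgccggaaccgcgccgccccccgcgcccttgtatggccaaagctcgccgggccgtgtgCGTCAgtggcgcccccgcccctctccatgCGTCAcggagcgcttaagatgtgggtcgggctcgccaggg
Egr2: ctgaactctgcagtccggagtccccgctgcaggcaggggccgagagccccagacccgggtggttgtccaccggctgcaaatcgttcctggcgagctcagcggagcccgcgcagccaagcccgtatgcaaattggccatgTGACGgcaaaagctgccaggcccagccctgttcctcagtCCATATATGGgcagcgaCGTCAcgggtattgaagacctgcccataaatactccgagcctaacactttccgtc
Npas4: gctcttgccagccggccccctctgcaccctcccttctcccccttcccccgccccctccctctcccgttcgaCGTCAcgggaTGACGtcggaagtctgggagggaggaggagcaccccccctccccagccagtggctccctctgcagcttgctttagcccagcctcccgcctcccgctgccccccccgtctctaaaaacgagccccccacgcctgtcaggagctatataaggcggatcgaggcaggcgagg
The Fos window held half-sites 129 to 125 and 66 to 62 bases before the start. The Npas4 window held a pair at 179 to 175 and 169 to 165 bases, and the Nr4a1 window held 4, the nearest at 40 to 36 bases. The Egr2 window shown held a CArG box, 72 to 63 bases before its start, between half-sites at 111 to 107 and 55 to 51 bases. Of the other 4 starts of Egr2, start 1 held none of the motifs, start 2 a CArG box alone, and starts 4 and 5 the same 3 matches at other distances. The Jun window held none of the 4 motifs, which says only that these letters are not in it. Fosb, Junb and Atf3 held 1 half-site each. Of 32851 RefSeq windows of the same length, 17.8% held the half-site, 1.55% the full element, 6.75% an AP-1 site and 1.47% a CArG box. A motif match is a description of the sequence and not a site of binding.

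Together the members took 1.14 to 2.15% of all counts in double-positive libraries (median 1.65%) and at most 1.96% in CD11b libraries (median 1.60%). They took 0.288 to 0.521% in CaMKII libraries (median 0.364%) and 0.0326 to 0.169% in ACSA2 libraries (median 0.0937%). More than 1% of the counts of every double-positive and CD11b library thus fell on these 10 genes, and the ranges of the 4 populations overlapped only between those 2.

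**Figure D1:**
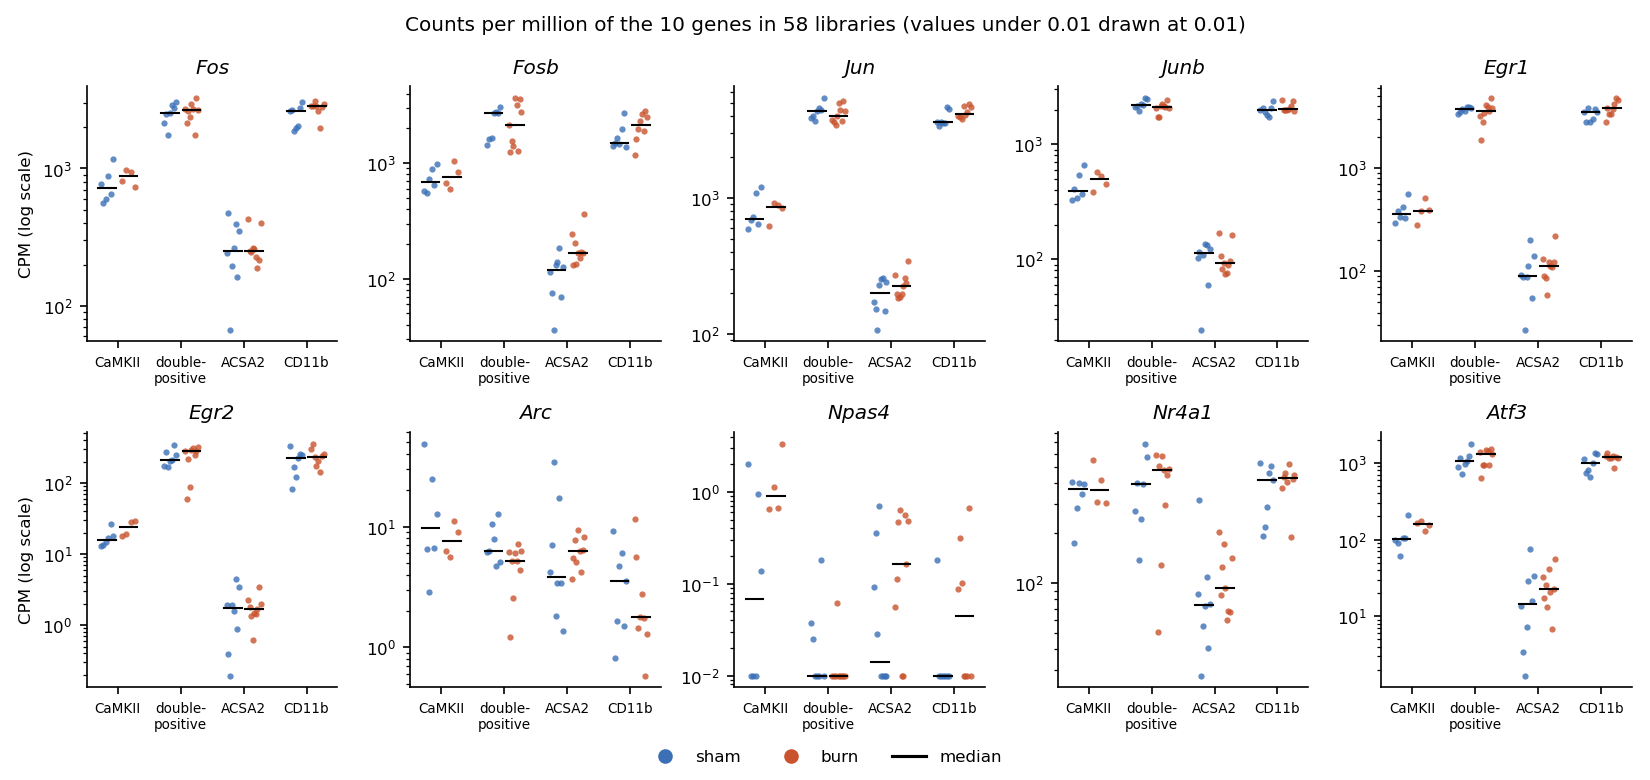
CPM of each of the 10 genes (1 panel a gene, log y axis of its own) in the 58 libraries by sorted population, with 1 point per library, sham in blue, burn in red, and the median of each group as a black line. Fos, Jun, Junb, Egr1, Egr2 and Atf3 lay highest in the double-positive and CD11b libraries and lowest in the ACSA2 libraries, while Arc and Npas4 did not follow that order, and sham and burn points overlapped in every panel.

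Fos, the member most used to mark responding cells, ranged in double-positive libraries from 1741 to 3051 CPM in sham mice (median 2527) and from 1757 to 3279 CPM in burned mice (median 2678). In CD11b libraries it was at 1869 to 3070 CPM in sham mice (median 2615) and 1976 to 3101 CPM in burned mice (median 2833). These 2 populations covered the same range. In CaMKII libraries Fos stood at 560 to 1164 CPM in the sham mice (median 716), and at 816, 970, 935 and 730 CPM in burned mice 2, 20, 22 and 24. In ACSA2 libraries it stood at 67.2 to 471 CPM in sham mice (median 252) and 189 to 428 CPM in burned mice (median 251). Every CaMKII library thus lay above every ACSA2 library and below every CD11b and double-positive library, and burned and sham mice overlapped in each population.

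Fosb, whose truncated splice form is stable and accumulates with repeated stimulation, had 1237 to 3692 CPM in the double-positive libraries and 1168 to 2808 CPM in the CD11b libraries. The CaMKII libraries had 555 to 1037 CPM and the ACSA2 libraries 36.2 to 361 CPM. Of the Jun partners, Jun stood at 3439 to 5474 CPM in double-positive, 3398 to 4928 CPM in CD11b, 587 to 1195 CPM in CaMKII and 107 to 342 CPM in ACSA2 libraries. Both were thus highest in the double-positive and CD11b libraries, whose ranges overlapped, and lowest in the ACSA2 libraries. Junb, which competes with Jun for Fos partners, was at 1737 to 2547, 1719 to 2416, 328 to 666 and 24.4 to 169 CPM in the same order of populations.

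Egr1 had 1885 to 4804 CPM in double-positive libraries, 2765 to 4749 CPM in CD11b libraries, 283 to 559 CPM in CaMKII libraries and 27.3 to 221 CPM in ACSA2 libraries. Egr2, its relative known from Schwann cell myelination and macrophages, had 58.9 to 345, 81.8 to 360, 13.1 to 29.5 and 0.196 to 4.51 CPM in the same order. The highest ACSA2 library of Egr2 lay below its lowest CaMKII library, while its double-positive and CD11b ranges overlapped. Atf3 had 637 to 1791, 647 to 1341, 60.9 to 212 and 1.68 to 75.0 CPM in the same order, so that its CaMKII and ACSA2 ranges overlapped. Nr4a1 stood apart from these 7 in that 3 populations shared its range, at 51.0 to 690.0 CPM in double-positive, 188 to 530 CPM in CD11b and 174 to 551 CPM in CaMKII libraries. In the ACSA2 libraries Nr4a1 had 27.9 to 314 CPM.

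Arc was low everywhere, at 1.23 to 12.7 CPM in double-positive, 0.585 to 11.5 CPM in CD11b, 2.86 to 48.6 CPM in CaMKII and 1.37 to 33.9 CPM in ACSA2 libraries. Its highest values were single libraries, namely 48.6 and 24.8 CPM in the CaMKII libraries of sham mice 8 and 17, and 33.9 and 17.2 CPM in the ACSA2 libraries of sham mice 13 and 17. Npas4 was near the limit of detection. In double-positive libraries 12 of 16 held 0 counts of it and none held more than 3, the number taken as the floor, which is 0.0557 to 0.212 CPM at these depths. It had 0 counts in 10 of 15 CD11b libraries (highest 0.664 CPM) and in 6 of 17 ACSA2 libraries (highest 0.703 CPM). CaMKII libraries had 0 to 2.01 CPM in the sham mice, 3 of them at 0, and 0.653, 1.14, 0.674 and 3.37 CPM in burned mice 2, 20, 22 and 24. Floors cover counting error only, since reads without molecular identifiers are not independent molecules.

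Levels of different genes were set side by side as CPM per kilobase of exon (GENCODE M21). On that scale the highest medians in double-positive libraries were those of Jun (1315), Fos (1122), Junb (935) and Egr1 (814), and in CD11b libraries those of Jun (1250), Fos (1180), Junb (872) and Egr1 (774). Jun exceeded Fos in 15 of 16 double-positive and 13 of 15 CD11b libraries, though their ranges overlapped. In CaMKII libraries the order of medians per kilobase was Fos (338), Jun (246), Junb (187), Fosb (112) and Nr4a1 (105), and in ACSA2 libraries Fos (107), Jun (70.0), Junb (44.2), Egr1 (24.5) and Nr4a1 (24.2). There Fos exceeded Jun in 10 of 10 CaMKII libraries and 15 of 17 ACSA2 libraries, and again the ranges of neighbours in the order overlapped. Arc and Npas4, the members most tied to neurons, were at the bottom of the order in CaMKII, double-positive and CD11b libraries, at medians of 2.57, 2.00 and 0.579 CPM per kilobase for Arc and 0.160, 0 and 0 for Npas4. In ACSA2 libraries Egr2 (0.495) lay between Arc (1.79) and Npas4 (0.0222). Part of the exons of Jun (7.28%, with Junos) and of Junb (7.52%, with Prdx2) overlaps a gene of the opposite strand, and the strand setting of the counting is not given in the sources used here.

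The 4 populations were fitted together on the counts (edgeR quasi-likelihood test, with batch and treatment as terms and Benjamini-Hochberg adjustment over all 33150 genes tested), and a gene was called where its adjusted p was 0.05 or lower and its log2 fold change (log2FC) reached 1 in either direction. The 6 contrasts share libraries, so their values are given side by side and not as separate evidence. P-values measure the spread between these libraries, 1 per mouse in a population.

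**Figure D2:**
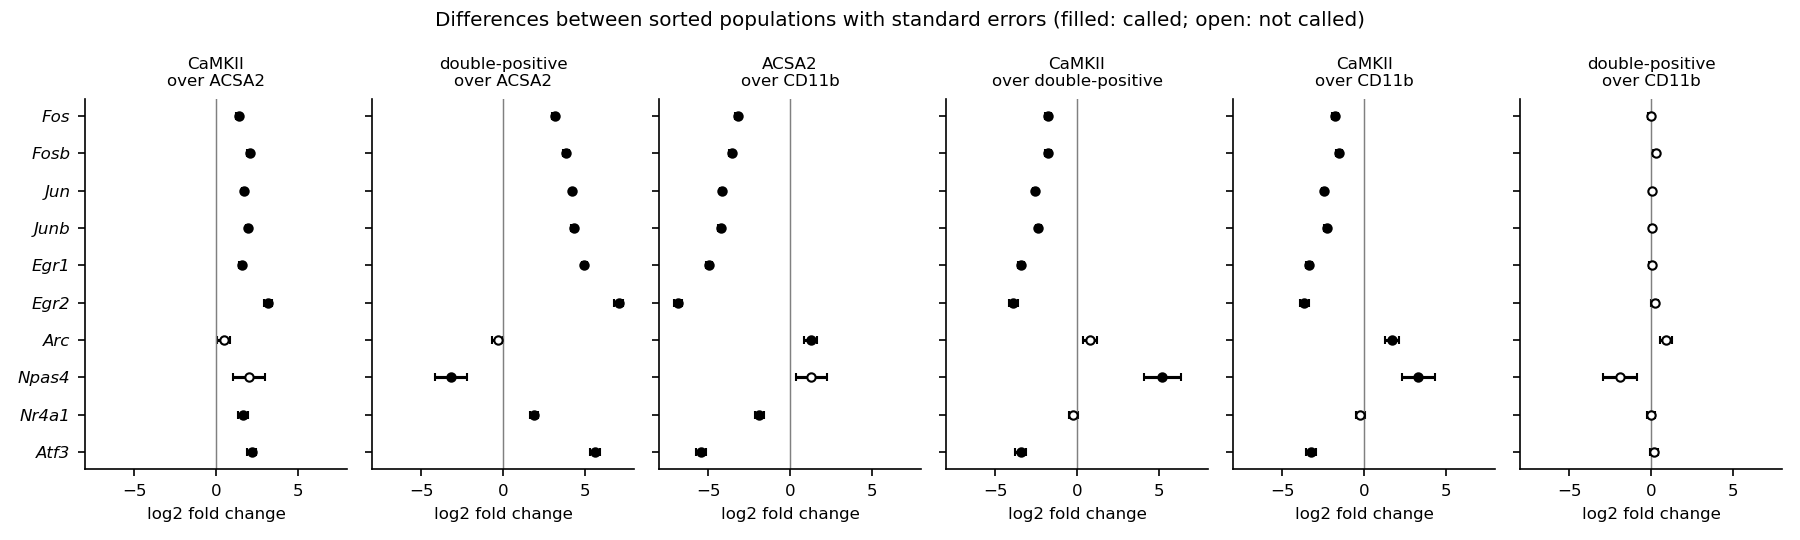
Log2FC of each member (x axis) between each pair of sorted populations, 1 panel a pair, with bars of 1 standard error, filled points for called genes and open points for genes not called. Points of Npas4 in panels with double-positive libraries, where it had too few counts, depend on the prior count of the fit and are not read. Egr2 and Atf3 lay farthest from 0 among the members that differed from the ACSA2 libraries, and every point of the double-positive against CD11b panel was open.

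ACSA2 libraries were lower than CD11b libraries in 8 of the 10 members and higher in 1, against 53.8% of all genes called in either direction, 21.7% of them lower and 32.1% higher. The fold between them, on the fitted scale, was 9.10 for Fos (log2FC −3.19 ± 0.16 SE, adjusted p = 1.6e-26), 18.1 for Jun (−4.17 ± 0.11, adjusted p = 5.9e-40) and 114 for Egr2 (−6.83 ± 0.26, adjusted p = 7.0e-32). Fosb was 11.9-fold, Junb 19.0-fold, Egr1 30.9-fold, Atf3 43.5-fold and Nr4a1 3.68-fold lower. All 8 were lower in the ACSA2 library of the same mouse in 15 of 15 mice. Ranges did not overlap for 7 members, as for 23.4% of all genes. Arc went the other way, 2.38-fold higher in ACSA2 libraries (log2FC 1.25 ± 0.39, adjusted p = 0.00357) and higher in 10 of 15 mice. Without all libraries of mouse 13 the log2FC of Arc was 0.96 (adjusted p = 0.0163), below the minimum change. Both populations were sorted from the same tube of caudal cortex, so their dissociation was shared up to the sort.

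Double-positive libraries were higher than ACSA2 libraries in 8 members and lower in 1, against 52.5% of all genes called, 23.3% higher and 29.1% lower. The difference was 8.95-fold for Fos (log2FC 3.16 ± 0.15), 19.0-fold for Jun (4.25 ± 0.11, adjusted p = 2.6e-40), 31.6-fold for Egr1 and 134-fold for Egr2 (7.06 ± 0.26, adjusted p = 2.5e-32). Fosb (14.4-fold), Junb (19.9-fold), Atf3 (49.6-fold) and Nr4a1 (3.68-fold) were called as well. The direction held in 16 of 16 mice for 7 of the 8 and in 13 of 16 mice for Nr4a1. Ranges did not overlap for 7 members, as for 22.9% of all genes. The member called lower was Npas4, whose counts over all double-positive libraries together were under the minimum of 10, so that it entered the contrasts with them only through the other populations. Its call there was lost in sham mice alone and in batch 3 alone, and nothing is read from it.

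Between double-positive and CD11b libraries 0 members were called by edgeR, against 7.98% of all genes, and 1 (Arc, 0.92 ± 0.38, adjusted p = 0.110) had an unadjusted p under 0.05, as 23.5% of all genes did. DESeq2 called 0 members as well, and 2162 of all 33150 genes. Apart from Arc and Npas4, the log2FC of the members lay between −0.02 and 0.28. For Fos the 95% interval (normal) ran from −0.32 to 0.27 and for Jun from −0.12 to 0.27, so that differences of 2-fold are outside both intervals. Ranges overlapped for all 10 members, while 0.241% of all genes had ranges that did not. With the mouse as a block, in a fit of these 2 populations alone, Arc was called (log2FC 1.29 ± 0.36, adjusted p = 0.0166). It was also called in batch 3 alone (1.47, adjusted p = 0.0175) and without the libraries of mouse 2 (1.14, adjusted p = 0.0462), while over 9 other settings of the fit its adjusted p ran from 0.0166 to 0.470. These libraries came from different cortical regions and tubes, and both carried the microglial markers given above.

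CaMKII libraries lay between. Against ACSA2 libraries 8 members were called higher and 0 lower, against 18.4% of all genes called, 14.1% higher and 4.34% lower. Fos was 2.63-fold higher (log2FC 1.39 ± 0.16, adjusted p = 2.9e-10), Jun 3.25-fold, Junb 3.87-fold, Fosb 4.17-fold, Egr1 2.97-fold, Nr4a1 3.14-fold (1.65 ± 0.29, adjusted p = 3.8e-06), Atf3 4.56-fold and Egr2 8.98-fold (3.17 ± 0.24, adjusted p = 8.5e-17). The direction held in 10 of 10 mice for each of the 8. Ranges did not overlap for 6 members, as for 5.82% of all genes. Npas4 (adjusted p = 0.101) and Arc were not called. Both populations carried astrocyte genes, at a median summed level of 24404 CPM in CaMKII and 46181 CPM in ACSA2 libraries. Microglial genes, by contrast, were at a median of 989 CPM in CaMKII and 86.6 CPM in ACSA2 libraries, and endothelial genes at 5251 and 763 CPM, and the part of the other cells of the CaMKII libraries in these differences was not tested.

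Against double-positive libraries, the CaMKII libraries were lower in 7 members and higher in 1, with 45.2% of all genes called, 17.5% lower and 27.7% higher. The log2FC was −1.77 ± 0.18 for Fos (adjusted p = 7.9e-13), −2.55 ± 0.12 for Jun (adjusted p = 5.9e-26), −3.41 ± 0.18 for Egr1 (adjusted p = 5.1e-24) and −3.89 ± 0.28 for Egr2 (adjusted p = 1.5e-18). Fosb (−1.79), Junb (−2.36) and Atf3 (−3.44) were lower too, and each of the 7 was lower in 9 of 9 mice that had both libraries. These 2 populations were sorted from the same tube of motor cortex. Ranges did not overlap for 7 members, as for 18.8% of all genes. Nr4a1 and Arc were not called. The member called higher was Npas4, which had too few counts in double-positive libraries, as above. This call was lost in sham mice alone, and nothing is read from it.

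Against CD11b libraries 7 members were lower and 2 higher in CaMKII libraries, with 45.5% of all genes called, 15.8% lower and 29.6% higher. Fos (−1.79 ± 0.18), Jun (−2.47 ± 0.12), Egr1 (−3.38 ± 0.18), Egr2 (−3.67 ± 0.28) and Atf3 (−3.25 ± 0.33) were among those lower, and each of the 7 was lower in 10 of 10 mice. Arc was 3.28-fold higher in CaMKII libraries (log2FC 1.71 ± 0.41, adjusted p = 2.6e-04), in 8 of 10 mice, and Npas4 was higher (adjusted p = 0.00405). Nr4a1 was not called. Ranges did not overlap for 7 members, as for 19.2% of all genes.

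Over the 10 members the median log2FC was −3.87 for ACSA2 against CD11b, 4.05 for double-positive against ACSA2, 1.83 for CaMKII against ACSA2, −2.08 for CaMKII against double-positive, −2.04 for CaMKII against CD11b and 0.07 for double-positive against CD11b libraries. The medians over all genes in the same fit were 0.24, −0.12, −0.03, 0.14, 0.20 and 0.15. With scaling by library size alone the median of all genes moved by 0.117, 0.173 and 0.113 in the contrasts of CaMKII with double-positive, ACSA2 and CD11b libraries, small beside these differences.

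Other genes of the response, from lists chosen with earlier results of these data known, are given as counts, to be read against the shares of all genes called in the same contrasts, given above. Between ACSA2 and CD11b libraries, where 53.8% of all genes were called, the 9 of 15 relatives, 15 of 26 upstream regulators and 7 of 14 stress genes called lay near that share. Of 31 other immediate early genes, 4 were higher and 26 lower in ACSA2 than in CD11b libraries, with a median log2FC of −3.20. Among the lower were Rgs2 (−6.32), a regulator of G protein signalling, and Zfp36 (−5.11), an mRNA decay factor. The medians in ACSA2 and CD11b libraries were 5.94 and 616 CPM for Rgs2 and 49.9 and 1979 CPM for Zfp36. Rgs1, of the same family as Rgs2, and Dusp2, a MAP kinase phosphatase, were lower too, at medians of 0.170 and 213 CPM for Rgs1 and of 0 and 19.8 CPM for Dusp2, and no fold is given for levels so near 0. Of the same 31 genes, 25 were higher and 3 lower in double-positive than in ACSA2 libraries, 25 higher and 0 lower in CaMKII than in ACSA2 libraries, and 5 higher and 22 lower in CaMKII than in double-positive libraries. Against CD11b, 4 were higher and 21 lower in CaMKII and 1 higher and 0 lower in double-positive libraries.

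Of 15 family relatives of the members, 3 were higher and 6 lower in ACSA2 than in CD11b libraries, Jund, a Jun partner, among the lower (−3.30). In double-positive against ACSA2 libraries 6 were higher and 3 lower, with Egr3 at medians of 90.3 and 7.87 CPM (3.34). In CaMKII against ACSA2 libraries 7 were higher and 1 lower, with the AP-1 factor Fosl2 at medians of 145 and 21.0 CPM (2.45). The other contrasts of the relatives gave 5 higher and 4 lower for CaMKII against double-positive, 5 and 5 for CaMKII against CD11b, and 2 and 0 for double-positive against CD11b libraries.

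A list of 15 late activity genes of neurons, the kind that follow Fos and Npas4 after sustained firing, differed in direction in most contrasts. It had 8 higher and 1 lower in ACSA2 than in CD11b libraries, where 32.1% of all genes were called higher and 21.7% lower. Both directions together, its calls there lay near the 53.8% of all genes, and its difference from the other lists was not tested. Among the higher was Mfap3l (6.63), at medians of 391 and 4.09 CPM. Nrn1, Inhba and Nptx2 were higher as well, at ACSA2 medians of 12.4, 10.2 and 0.937 CPM, beside CD11b medians of 0.328, 0 and 0 CPM, and no fold is given for them. It had 11 higher and 0 lower in CaMKII against double-positive, 11 and 0 in CaMKII against CD11b, 3 and 1 in CaMKII against ACSA2, 1 and 8 in double-positive against ACSA2, and 2 and 0 in double-positive against CD11b libraries. Bdnf, a neurotrophin, was lower in double-positive than in ACSA2 libraries, at medians of 0 and 1.88 CPM. The neuron markers summed to medians of 438 CPM in CaMKII and 584 CPM in ACSA2 libraries, against 32.6 CPM in double-positive and 14.7 CPM in CD11b libraries. The median gene of these markers stood at 11.6 CPM in CaMKII, 3.29 CPM in ACSA2, 1.48 CPM in double-positive and 0.842 CPM in CD11b libraries, and the part of such cells in these counts was not tested.

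Of 26 upstream regulators, the kinases and factors that act on the promoters of the members, 2 were higher and 13 lower in ACSA2 than in CD11b libraries. Rps6ka1 (−5.38), a ribosomal S6 kinase, and the MADS box factors Mef2c (−4.55) and Mef2a (−3.84) were among the lower, with Mef2c at medians of 30.0 and 766 CPM. In the remaining contrasts 13 were higher and 2 lower in double-positive and 7 and 0 in CaMKII against ACSA2 libraries, 2 and 8 in CaMKII against double-positive, 2 and 9 in CaMKII against CD11b, and 0 and 0 in double-positive against CD11b libraries. Of 14 heat shock and stress genes, which also respond to handling, 1 was higher (Hspb1, 2.87) and 6 were lower in ACSA2 than in CD11b libraries, with the chaperones Dnajb1 (−2.84) and Hspa1a (−2.20) and the haem oxygenase Hmox1 (−3.37) among the lower. The stress list had 6 higher and 1 lower in double-positive and 5 and 0 in CaMKII against ACSA2 libraries, 2 and 3 in CaMKII against both double-positive and CD11b libraries, and 0 and 0 in double-positive against CD11b libraries. Its summed level was 1793 to 3265 CPM in ACSA2, 2401 to 7493 CPM in CaMKII, 2711 to 8377 CPM in double-positive and 3062 to 8476 CPM in CD11b libraries. The median of this sum was lowest in ACSA2 libraries (2185 CPM), as were the medians of 8 of the members, and whether handling set either of them was not tested.

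The study asked whether a burn of the flank changes gene expression in these cortical cells 5 weeks later. In each population burned and sham mice were compared with batch as a term, and 0 members were called in any of the 4 populations by edgeR, out of 10 tested in CaMKII, 9 in double-positive (Npas4 had too few counts), 10 in ACSA2 and 10 in CD11b libraries. The share of all genes called was 0% in each of them as well. At an unadjusted p under 0.05 there were 0, 0, 1 and 2 members in the same order, against 3.9, 7.01, 10.7 and 7.81% of all genes. DESeq2 called 0 members in every population too. Of all genes it called 3 of 28107, 2 of 26707, 27 of 27930 and 80 of 26079 in the same order. The smallest adjusted p of a member was 0.9998 in CaMKII, 0.732 in double-positive, 0.458 in ACSA2 and 0.639 in CD11b libraries.

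**Figure D3:**
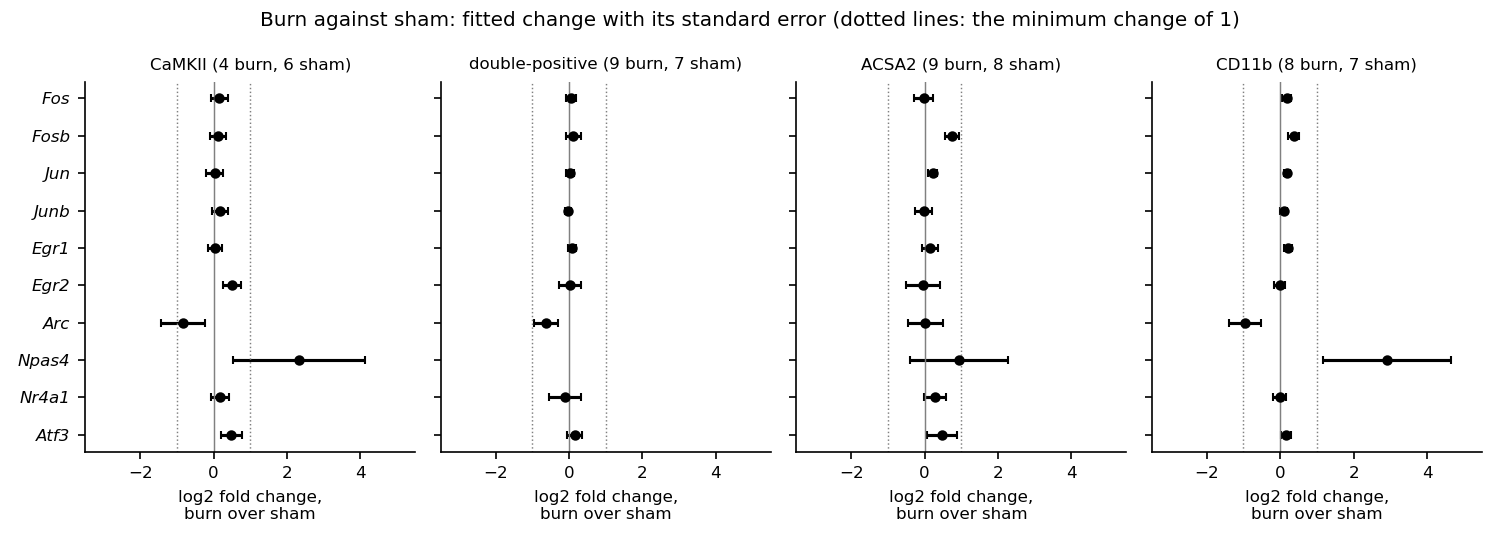
Log2FC of burn over sham (x axis) for each member in each sorted population, with bars of 1 standard error and dotted lines at the minimum change of 1 in either direction (Npas4 was not tested in double-positive libraries). Fosb in ACSA2 libraries lay at 0.74 with the smallest error relative to its size, and Npas4, with few counts, had the widest bars.

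For Fos the 95% interval of the log2FC was −0.31 to 0.63 in CaMKII, −0.23 to 0.32 in double-positive, −0.54 to 0.49 in ACSA2 and −0.06 to 0.41 in CD11b libraries. A 2-fold change of Fos lay outside the interval in each population. Fosb had the smallest p of all members in the ACSA2 libraries, where sham mice had 36.2 to 185 CPM (median 120.0) and burned mice 130 to 361 CPM (median 167). The groups overlapped, with the highest value in burned mouse 24. The log2FC was 0.74 ± 0.19 (interval 0.36 to 1.12), and the adjusted p of 0.458 missed the threshold (edgeR, unadjusted p = 8.8e-04). Without mouse 24 the log2FC was 0.56 (adjusted p = 0.605). Without a filter on low counts the adjusted p was 0.0367 and the log2FC again 0.74, and over 8 other settings of the fit the adjusted p ran from 0.0367 to 0.735. Of 8 endothelial marker genes, 6 had an unadjusted p under 0.05 in the same comparison (median log2FC 0.55), with summed levels of 159 to 894 CPM in sham mice and 507 to 1543 CPM in burned mice, and their part in the value of Fosb was not tested. In CD11b libraries Fosb (0.36 ± 0.14, adjusted p = 0.639) and Arc (−0.96 ± 0.43, adjusted p = 0.639) had an unadjusted p under 0.05. Without the batch term the log2FC of Arc there was −0.21. Of marker genes in the same comparison, 2 of 8 endothelial (median log2FC −0.81), 1 of 10 neuron (−0.32), 2 of 10 excitatory neuron (0.07), 2 of 10 astrocyte (−0.36) and 2 of 8 border macrophage and monocyte genes (0.44) had an unadjusted p under 0.05. The endothelial genes summed to 75.9 to 194 CPM in sham and 64.1 to 111 CPM in burned mice, the neuron genes to 10.7 to 22.6 and 8.97 to 19.7 CPM, and the border macrophage and monocyte genes to 89.8 to 345 and 226 to 444 CPM. The part of these cells in the values of Fosb and Arc was not tested.

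Jun in ACSA2 libraries was at 107 to 258 CPM in sham mice (median 199) and 182 to 342 CPM in burned mice (median 223). Egr2 in CaMKII libraries was at 13.1 to 26.3 CPM in sham mice (median 15.8) and at 17.9, 19.1, 28.5 and 29.5 CPM in burned mice 2, 20, 22 and 24. In the same comparison 2 of 10 microglial marker genes (median log2FC 0.63), 3 of 6 oligodendrocyte precursor genes (0.54), 4 of 7 mural cell genes (−0.55) and 3 of 4 red blood cell genes (6.47, at summed medians of 4.67 and 3.22 CPM) had an unadjusted p under 0.05, and 0 were called. The microglial genes summed to 445 to 1605 CPM (median 715) in sham mice and 712 to 2055 CPM (median 1137) in burned mice, and the part of these cells in the values of Egr2 was not tested. The groups overlapped for Jun and Egr2 too, as did burn and sham in all 40 pairs of a member and a population, where 0.37, 0, 0.0143 and 0.0153% of all genes did not overlap in CaMKII, double-positive, ACSA2 and CD11b libraries. The median log2FC of the members was 0.17, 0.02, 0.18 and 0.17 in that order, beside 0.02, −0.00, 0.05 and 0.00 over all genes. A test of whether the burn effect differed between populations called 0 members, against 0.0241% of all genes, and Fosb had the smallest p (0.0483 unadjusted, adjusted p = 0.413, edgeR). Of the lists of relatives, other immediate early genes, late activity genes, upstream regulators and stress genes, 0 genes were called for burn in any population by edgeR. With 0% of all genes called by edgeR, these counts of 0 are those of its background.

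The sequencing batches were contrasted as a technical grouping, and batch 3 held 10 of the 17 mice. Against batches 1 and 2, 0 members were called in batch 3 by edgeR, where 0, 1.12, 1.03 and 0.399% of all genes were called in CaMKII, double-positive, ACSA2 and CD11b libraries. At an unadjusted p under 0.05 there were 1, 5, 6 and 1 members, beside 5.37, 21, 17.1 and 14.7% of all genes. In double-positive libraries Fosb (0.84 ± 0.19, adjusted p = 0.0129) and Egr1 (0.40 ± 0.10, adjusted p = 0.0203) passed the adjusted p but not the minimum change, as 5.95% of all genes did by adjusted p alone. Egr1 ran from 3582 to 4804 CPM in batch 3 and from 1885 to 3509 CPM in batches 1 and 2, without overlap. Ranges of the batches did not overlap for 2 members in CaMKII (Jun and Egr1, with 2 libraries outside batch 3), 1 in double-positive, 0 in ACSA2 and 0 in CD11b libraries, beside 3.52, 1.47, 0.308 and 1.32% of all genes. With all deposited libraries included the log2FC was 1.05 for Fosb (adjusted p = 0.743) and 0.57 for Egr1 (adjusted p = 0.966), in a fit that took in the batch 1 library of mouse 8, which had 0 counts of both genes. Of the markers of other cells in the same contrast, 6 of 8 endothelial genes were called lower in batch 3 (median log2FC −2.12), with summed levels of 65.5 to 105 CPM in batch 3 and 101 to 705 CPM in batches 1 and 2. At an unadjusted p under 0.05 stood 8 of these 8 genes, 7 of 8 oligodendrocyte genes (median −1.39) and 7 of 10 astrocyte genes (median −0.48). The neuron genes had a positive median (0.58), with 2 of 10 at an unadjusted p under 0.05, 1 of them called higher, and summed levels of 19.9 to 57.1 CPM in batch 3 and 23.3 to 45.9 CPM in batches 1 and 2. The median was −0.16 for microglial genes, 5 of 10 of them at an unadjusted p under 0.05, and −1.16 for oligodendrocyte precursor genes, with 3 of 6. The part of all these cells in the values of Fosb and Egr1 was not tested. Batch 1 of the double-positive libraries held 3 burned mice and 0 sham mice, so that within it no treatment value could be had.

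In ACSA2 libraries the batch difference of Atf3 was 1.48 ± 0.44 (adjusted p = 0.0707), that of Egr2 1.29 ± 0.48 (adjusted p = 0.154) and that of Nr4a1 −0.97 ± 0.30 (adjusted p = 0.0833). None passed. Atf3 did with DESeq2 (1.56, adjusted p = 0.0302) and without mouse 11 (1.93, adjusted p = 0.0175) or mouse 22 (1.68, adjusted p = 0.0237), Egr2 with DESeq2 (1.36, adjusted p = 0.0167) and Nr4a1 without mouse 13 (−1.22, adjusted p = 0.0125). Of all 27930 genes, DESeq2 called 618 here, where edgeR called 288. In the same contrast 9 of 10 microglial marker genes had an unadjusted p under 0.05 and 1 was called higher (median log2FC 2.18), with summed levels of 75.9 to 163 CPM in batch 3 and 44.1 to 81.0 CPM in batches 1 and 2. The median log2FC was −1.58 for oligodendrocyte genes (2 of 8 called lower) and −0.75 for excitatory neuron genes (3 of 10 called lower). The part of these cells in the values of Atf3, Egr2 and the list genes named next was not tested. From the other lists, the orphan receptor Nr4a2 (−1.10, adjusted p = 0.041) was called lower in batch 3 of the ACSA2 libraries, and Socs3 (1.76, adjusted p = 0.007) and Zfp36 (1.15, adjusted p = 0.009) higher. The prohormone convertase Pcsk1 was called lower at medians of 0 CPM in batch 3 and 0.118 CPM in batches 1 and 2, too near 0 for a fold to be given.

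To see whether the members moved together, log2(CPM + 1) was centred within batches and Fos was related to each of the other 9 members across mice in each population (Pearson r and Spearman rho, two-sided permutation test within batches with 100000 resamples, adjusted over 36 relations). CD11b mouse 13 was the only library of its batch there and was dropped, which left 14 mice. Of the 36 relations 22 passed an adjusted p of 0.05, 5 in CaMKII, 7 in double-positive, 7 in ACSA2 and 3 in CD11b libraries, all positive. By rho 16 passed, and within batch 3 alone 18 passed.

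**Figure D4:**
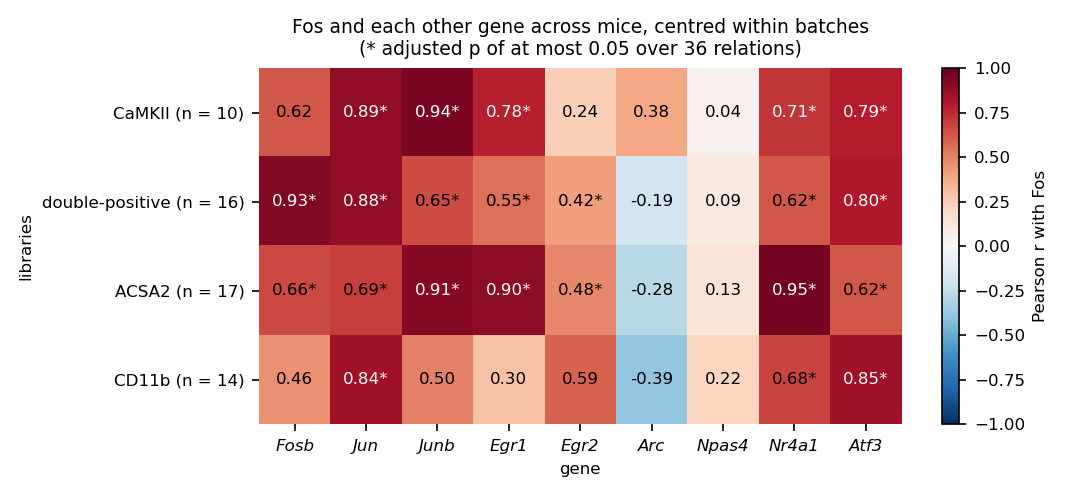
Pearson r of Fos with each other member (columns) across the mice of each population (rows), with values centred within batches and stars for an adjusted p of at most 0.05 over the 36 relations. The 7 columns other than Arc and Npas4 are red throughout, and the Arc column changes sign between populations.

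In ACSA2 libraries Nr4a1 had r = 0.95 and rho = 0.87 with Fos (permutation p = 3e-05, adjusted p = 5.4e-04, n = 17), and r = 0.87 over the 14 mice left without the 2 farthest from the median of Fos and another that was then alone in its batch. Egr1 there had r = 0.90 and rho = 0.91 (permutation p = 2e-05, adjusted p = 5.4e-04, n = 17), and the same r of 0.90 over those 14 mice. In double-positive libraries Fosb had r = 0.93 and rho = 0.86 (permutation p = 9e-05, adjusted p = 8.1e-04, n = 16), and r = 0.74 without 2 mice. Junb followed Fos closely in CaMKII libraries with r = 0.94 and rho = 0.94 (permutation p = 0.00104, adjusted p = 0.00535, n = 10), and r = 0.97 without 2 mice. In CD11b libraries Atf3 had r = 0.85 and rho = 0.85 (permutation p = 0.00145, adjusted p = 0.00652, n = 14), and r = 0.82 without 2 mice. With the 2 farthest mice left out of each, 12 of the 36 relations passed, against 22 with all mice.

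Arc (r from −0.39 to 0.38) and Npas4 (r from 0.04 to 0.22) had no relation with Fos that passed in any population over all batches. In batch 3 alone Arc in double-positive libraries had r = −0.56 (permutation p = 0.0776, adjusted p = 0.122, n = 10) and rho = −0.73 (permutation p = 0.0203, adjusted p = 0.0487), so that by rho a negative relation passed there. The same member was also compared between the 2 populations sorted from 1 tube, CaMKII with double-positive (n = 8) and ACSA2 with CD11b (n = 14). Of these 20 relations 0 passed. The smallest p values were those of Egr2 (r = 0.81, rho = 0.88, exact permutation p = 0.0165, adjusted p = 0.25, n = 8) and Atf3 (r = 0.77, rho = 0.79, exact permutation p = 0.025, adjusted p = 0.25, n = 8), both in the motor cortex pair.

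Some libraries were at the end of the range for many members. Over the 9 members other than Npas4, the ACSA2 library of sham mouse 13 was the lowest for 8 and the highest for Arc, the double-positive library of mouse 7 was the lowest for 6, and the CaMKII library of mouse 19 was the highest for 5. In mouse 13 Fos was at 67.2 CPM and Arc at 33.9 CPM, with a summed level of neuron genes of 1186 CPM, the highest of the ACSA2 libraries, and of excitatory neuron genes of 2440 CPM, against at most 941 CPM in the other 16. Its Hspa1a, at 12.2 CPM, was the lowest of the ACSA2 libraries. In the double-positive library of mouse 7 Nr4a1 was at 51.0 CPM, Egr2 at 58.9 CPM and Hspa1a at 33.3 CPM, the lowest of that population for each. The part of these marker and chaperone levels in the members' levels was not tested.

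**Figure D5:**
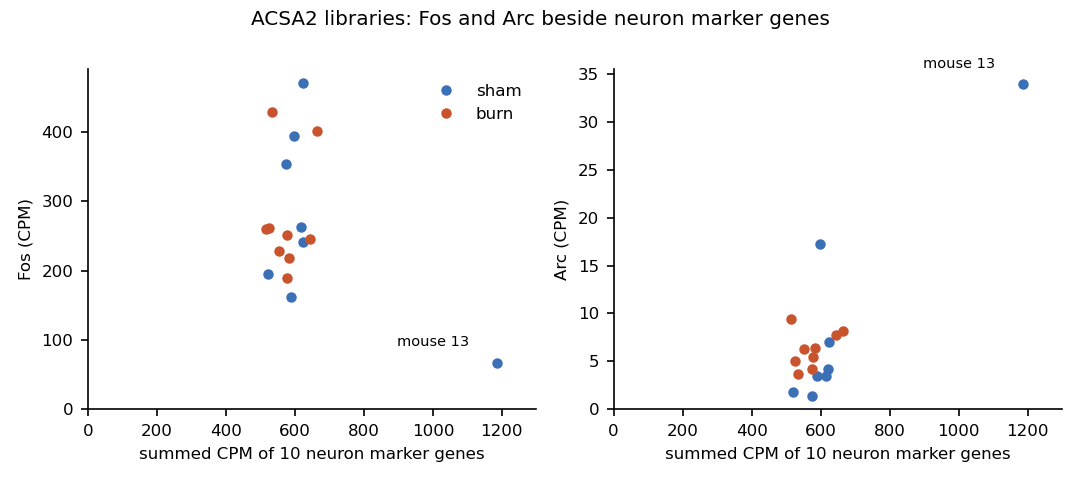
Fos (left) and Arc (right), in CPM on the y axes, against the summed CPM of 10 neuron marker genes in the 17 ACSA2 libraries, sham in blue and burn in red. Mouse 13 stands alone at 1186 CPM of neuron genes, with the lowest Fos (67.2 CPM) and the highest Arc (33.9 CPM).

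The genes most like the members across mice were sought among the 15295 genes whose mean count reached 10 in each population, by the mean over the 4 populations of their r with the mean of the members. The 10 highest were Dnaja1 (0.765), Hspa1a (0.762), Dnajb1, Klf4 (0.761), Hspa1b (0.751), Cdkn1a (0.751), Ppp1r15a (0.739), Sik1 (0.722), Grasp (0.717) and Gem (0.712), where all genes had a median of −0.018 and a 90th percentile of 0.243. Dnaja1, Dnajb1, Hspa1a and Hspa1b encode chaperones of the heat shock response, Cdkn1a a cell cycle inhibitor and Ppp1r15a a phosphatase subunit of the integrated stress response. Hspa1a and Hspa1b are near-identical copies, so their reads may be split between them. The r of Hspa1a was 0.70 in CaMKII, 0.91 in double-positive, 0.79 in ACSA2 and 0.65 in CD11b libraries. The points share libraries, depth and the mice of each batch, and the values are a description. Among the members themselves, each set against the mean of the others, Nr4a1 (0.769), Atf3 (0.756) and Fos (0.735) were nearest. Arc (0.037) was the farthest of those ranked, at percentile 61.3 of all genes.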

How the data were processed

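The authors trimmed the reads with fastp, aligned them with STAR 2.7.1 and counted them on Ensembl genes with GenomicAlignments 1.26.0. Their methods name the genome as both mm10 and GRCm39. The counts deposited by the authors, whole numbers with no normalisation, were used as they stand, and their variance stabilised values were not used. Every count column carried the name of 1 sample. CPM were taken over all genes of a library.

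Tests used edgeR 4.0.16 in R 4.3.3 (quasi-likelihood, TMM, at least 10 counts in total, Benjamini-Hochberg over all genes), and genes were called where the adjusted p was 0.05 or lower and the log2FC reached 1 in either direction. The SE of a log2FC was its size over the square root of F. The script was tested on simulated data. Burn and sham were compared in each population with batch as a term, and populations in 1 joint fit. Relations across mice used permutation within batches, 100000 resamples for 10 or more mice and all permutations below that. DESeq2 1.42.0 was an alternative, as were other scaling, no filter, no batch term, batch 3 alone, sham mice alone, all deposited libraries, the mouse as a block and each mouse left out in turn. Figures were drawn with matplotlib 3.10.9.

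A number marks the same mouse in every population, so libraries are paired by animal. The median correlation of their deviations from the group means ran from −0.005 to 0.089 over the 6 pairs of populations. The 10 genes and all lists were chosen with earlier results of these data known. Named genes are the 10 members, at most 4 called genes of each list with the largest change, and the 10 genes most like the members. Promoters are of RefSeq on GRCm38.p6, and exon lengths and overlaps of GENCODE M21 on GRCm38. For the counts the study names mm10 and GRCm39, which are different builds, so no positions are given for counted genes.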

Additional observations from a re-analysis of the deposited data

Results flagged for a closer look

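Groups of a member, a population and a treatment with 4 to 10 libraries numbered 80. Of these, 13 held a library far from the rest by Dixon's test at its 95% critical value. Chance gives about 1 in 20 for independent groups of normally distributed values. The members vary together and Npas4 was undetected in many libraries, so the 13 are not set against that rate. In CaMKII libraries, Atf3 of sham mouse 19 stood at 212 CPM, with the other sham mice at 60.9 to 105 CPM. In ACSA2 libraries, burned mouse 24 was the highest for Fosb (361 CPM, others 130 to 244 CPM) and for Egr1 (221 CPM, others 59.7 to 131 CPM). Sham mouse 12 had 314 CPM of Nr4a1 there (others 27.9 to 109 CPM), and sham mouse 17 had 75.0 CPM of Atf3 (others 1.68 to 33.3 CPM).

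In CD11b libraries, burned mouse 22 was the lowest for Fos (1976 CPM, others 2607 to 3101 CPM), for Nr4a1 (188 CPM, others 373 to 517 CPM) and for Atf3 (859 CPM, others 1154 to 1332 CPM). Burned mouse 2 had 11.5 CPM of Arc, with the others at 0.585 to 5.55 CPM. Npas4 gave 4 of the 13, on 3 to 17 counts. It was at 0.0620 CPM in the double-positive library of burned mouse 11 (others 0) and at 0.180 CPM in that of sham mouse 18 (others 0 to 0.0372), with 3 counts in each. It was at 0.664 CPM (17 counts) in the CD11b library of burned mouse 23 (others 0 to 0.313) and at 0.182 CPM (10 counts) in that of sham mouse 8 (others 0).

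The 5 libraries left out gave 50 values of a member, and 5 of them, all of mouse 3, lay above every sham library of their population. They were Fos in CaMKII (1223 CPM, sham 560 to 1164 CPM) and double-positive libraries (3078 CPM, sham 1741 to 3051 CPM), and Fosb (291 CPM, sham 36.2 to 185 CPM), Jun (316 CPM, sham 107 to 258 CPM) and Junb (208 CPM, sham 24.4 to 136 CPM) in ACSA2 libraries. Another 5 values of mouse 3 lay below every sham library, namely Fosb (441 CPM, lowest sham 555 CPM) and Egr2 (12.1 CPM, lowest sham 13.1 CPM) in CaMKII, Jun in double-positive (3579 CPM, lowest sham 3654 CPM), and Jun (3184 CPM, lowest sham 3398 CPM) and Fosb (1194 CPM, lowest sham 1369 CPM) in CD11b libraries. The double-positive library of mouse 8 had 0 counts of all 10 members. With 1 library per population, these values have no replicate.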

How the results depend on the processing

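Counts of members called and of relations that passed were within 1.5 times of those reported in 124 values under other settings and outside that in 5. In fits that left out 1 mouse, counts of members called were within it in 229 values and outside it in 6. For batch 3 against batches 1 and 2 in ACSA2 libraries (0 members), DESeq2 called 2 and no filter on low counts 1, and leaving out a mouse gave 0 to 1 (1 without mouse 11, 13 or 22). Of all 27930 genes tested there, DESeq2 called 618 and edgeR 288. In CD11b libraries leaving out a mouse gave 0 to 1 for the same contrast (1 without mouse 13). Double-positive against CD11b libraries (0 members) gave 1 in batch 3 alone, 1 in the pair alone with the replicate block, and 0 to 1 with a mouse left out (Arc without mouse 2, Npas4 without mouse 18). Fos, Fosb, Jun, Junb, Egr1, Egr2 and Atf3 kept their calls and directions in every setting of the other 5 pairs of populations. Relations with Fos numbered 12 without the 2 farthest mice, against 22. The cause was not tested in any of these. The joint fits with the mouse as a block called 8, 8, 9, 9, 0 and 9 members in the 6 pairs of populations and 0 for the interaction, as without it. The call of Arc came from the fit that both held the pair alone and blocked the mouse. The call of Arc in ACSA2 against CD11b libraries was lost in sham mice alone (1.22, adjusted p = 0.112), and that of Npas4 in double-positive against ACSA2 libraries in sham mice alone (adjusted p = 0.259) and in batch 3 alone (adjusted p = 0.106), while Npas4 gained a call in ACSA2 against CD11b libraries in sham mice alone. Npas4 was at or under the floor of 3 counts in most libraries, the CaMKII libraries had 4 burned mice, and neither induction during dissociation nor cell composition could be separated from the level in the living tissue.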

Other observations

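Chaperone levels, of the same families as the genes most like the members, varied widely between the libraries of a population, with Hspa1a at 120 to 1144 CPM in CaMKII, 33.3 to 1380 CPM in double-positive, 12.2 to 158 CPM in ACSA2 and 55.2 to 1266 CPM in CD11b libraries. Ccn1, a matricellular immediate early gene, went against the order of the members, at a median of 144 CPM in CaMKII and 3.26 CPM in double-positive libraries (log2FC 5.05). Oligodendrocyte genes summed to 307 to 4020 CPM in the CaMKII libraries. The double-positive library of mouse 18 was the highest for 4 of the 9 members other than Npas4, and the ACSA2 library of mouse 24 and the CD11b library of mouse 23 for 3 each.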
